A study of Homo sapiens with 4 samples.

Results

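Messenger RNA levels of 9 enzyme genes that handle nitrogen in the liver were compared with and without a drug in the established human liver cancer line PLC8024. The genes are the urea cycle genes CPS1, OTC, ASS1, ASL and ARG1, and the genes ARG2, OAT, GLUL and GLUD1 of arginine, ornithine, glutamine and glutamate metabolism. They were found by symbol, and 9 of 9 were among the 26603 genes of the table. Of these, 8 had a mean of at least 1 FPKM (fragment counts scaled by gene length and library size) in a group and could be tested. OTC did not. The groups are 2 control libraries and 2 drug libraries of total RNA prepared with a stranded mRNA kit, all of this 1 tumor line, and the labels give no genetic change in either. Neither the drug, its dose, its vehicle nor the time of exposure is named. Nothing in the labels says that the libraries of a group are separate cultures, and the spread behind each p-value may therefore be technical. Values of a group are given in the order of its library numbers, first 1 and then 2.

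The urea cycle turns ammonia, which is toxic to the brain, into urea for excretion. Carbamoyl phosphate synthetase and ornithine transcarbamylase (CPS1 and OTC) act in mitochondria, and argininosuccinate synthetase, argininosuccinate lyase and arginase (ASS1, ASL and ARG1) complete the cycle in the cytosol, where arginase releases urea and regenerates ornithine. In liver tissue the cycle is strongest in hepatocytes around the portal vein, while glutamine synthetase (GLUL) takes up remaining ammonia in hepatocytes around the central vein, where ornithine aminotransferase (OAT) is also abundant.

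With drug, 5 of the 9 genes were lower, none was higher, 3 did not pass the test and OTC was not tested. The fallers were CPS1, ASS1 and ARG1 of the urea cycle, the mitochondrial arginase gene ARG2, and OAT. ARG1 passed the filter through its control level alone. ASL, GLUL and GLUD1 (glutamate dehydrogenase) did not pass, with drug means at 79.5%, 102% and 96.8% of their control means. Among all 11227 genes tested with limma at an adjusted p under 0.05, 6.02% were lower and 7.78% higher. Both drug libraries lay below both controls for 7 of the 9 genes (CPS1, ASS1, ASL, ARG1, ARG2, OAT and GLUD1), a pattern shown by 20.6% of all genes in the table and 23.3% of those tested. GLUL had both drug libraries above both controls, as did 24.2% of all genes and 40.3% of those tested, and OTC overlapped. With edgeR on whole reads recovered from the table, ASL joined the fallers, so that 6 were lower and 0 higher, against 11% and 8.37% of genes tested. In the authors' deposited table those 6 were lower at an adjusted p under 0.05 and 0 were higher, against 4.03% and 3.18% of its genes. On FPKM rescaled by TMM, a scaling that discounts genes of extreme change, limma again called 5 lower and 0 higher, against 6.45% and 4.89% of genes. Without the filter 3 were lower, since ARG1 and ARG2 no longer passed, and with 1 library left out 4 or 5 were.

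**Figure D1:**
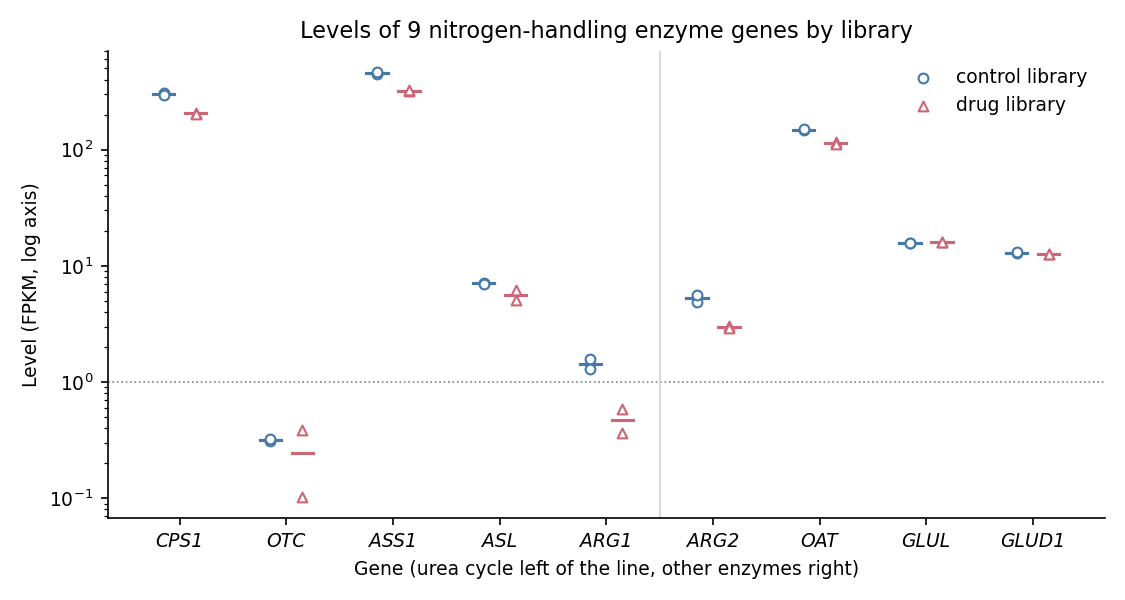
Level of each of the 9 enzyme genes in FPKM (log axis) in each library. Circles are the 2 control libraries, triangles the 2 drug libraries, short bars the group means, and the dotted line the level of 1 FPKM used as the filter; the grey upright separates urea cycle genes from the other 4. CPS1, ASS1 and OAT lie above 100 FPKM in all 4 libraries and ARG1 and OTC near or under the filter, and the drug triangles lie below the control circles for 7 of 9 genes.

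CPS1, which makes carbamoyl phosphate from ammonia and bicarbonate and sets the entry into the cycle, was at 306 and 296 FPKM in the control libraries and at 208 and 203 FPKM in the drug libraries. The groups did not overlap, and the drug mean was 68.2% of the control mean. The means were 301 ± 7.40 and 205 ± 3.65 FPKM (SD, n = 2 each), a log2 fold change of -0.55 ± 0.03 (SE, limma adjusted p = 0.00163) on the log2(FPKM + 1) scale. On that scale the change of a weakly expressed gene comes out too small. The gene (ENSG00000021826) lies on chromosome 2 at 210477682 to 210679107 (GRCh38). Its recovered reads were 96226 and 125794 without the drug and 92284 and 86433 with it.

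ASS1 joins citrulline and aspartate to argininosuccinate and was the most abundant of the 9 genes. It was at 445 and 466 FPKM without the drug and at 323 and 323 FPKM with it, with no overlap. The means were 456 ± 14.97 and 323 ± 0.655 FPKM (SD, n = 2 each), a log2 fold change of -0.49 ± 0.03 (SE, limma adjusted p = 0.00252). ASS1 (ENSG00000130707) lies on chromosome 9 at 130444929 to 130501274. The ratio of ASS1 to CPS1 levels was 1.45 and 1.58 without the drug and 1.55 and 1.60 with it, so the 2 groups overlapped in it. An exact permutation test of 2 against 2 libraries cannot give a two-sided p below 0.333, and here p = 0.667.

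ASL cleaves argininosuccinate to arginine and fumarate. Its levels were 7.09 and 7.04 FPKM without the drug and 5.07 and 6.17 FPKM with it, so the groups did not overlap but the drug libraries differed from each other by more than the control libraries did. The log2 fold change was -0.29 ± 0.09 (SE, limma adjusted p = 0.0855), with a 95% interval of -0.51 to -0.07. The call depends on the model. With edgeR on recovered reads (1220 and 1639 in control, 1231 and 1440 in drug libraries) ASL passed as lower (adjusted p = 0.0132), and in limma it passed without drug library 2 (log2 fold change -0.41, adjusted p = 0.0387). Without drug library 1 the limma log2 fold change was -0.17 (adjusted p = 0.141). ASL (ENSG00000126522, chromosome 7, 66075798 to 66093558) overlaps exons of AC068533.4 on the same strand, with 563 identical transcript bases. AC068533.4 was not analysed here, and how reads in the overlap were assigned is not known.

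ARG1 encodes the liver arginase, the last enzyme of the cycle, and was near the lower limit of what could be tested. It was at 1.56 and 1.296 FPKM without the drug and at 0.582 and 0.361 FPKM with it, on 99 and 111 reads without the drug and 52 and 31 with it. The groups did not overlap, and the control mean was 3.03-fold the drug mean. ARG1 fell by 0.73 ± 0.13 on the log2(FPKM + 1) scale (SE, limma adjusted p = 0.0277), while edgeR on recovered reads gave a log2 fold change of -1.63 (adjusted p = 0.00408). No left-out library kept its limma call: the adjusted p was 0.113 and 0.0763 when control 1 or control 2 was dropped, and 0.0621 and 0.102 when drug 1 or drug 2 was. The authors' deposited table lists ARG1 as down with a log2 fold change of -1.63 and, of the 9 genes, marks it alone. ARG1 (ENSG00000118520) lies on chromosome 6 at 131573144 to 131584332.

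OTC, which joins ornithine and carbamoyl phosphate to citrulline, was low in all libraries. It was at 0.312 and 0.323 FPKM without the drug and at 0.103 and 0.384 FPKM with it, on 15 and 21 against 7 and 25 reads. Its drug libraries lay on either side of both controls, and a difference was not detectable at this depth (edgeR without a filter, adjusted p = 0.729). OTC (ENSG00000036473) lies on chromosome X at 38352545 to 38421450. The 5 genes of the cycle had very unequal levels. On the scale of FPKM, control means ran from 0.318 for OTC through 1.43 for ARG1 and 7.06 for ASL to 301 for CPS1 and 456 for ASS1. In that order each neighbour differed by more than the spread between its libraries.

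**Figure D2:**
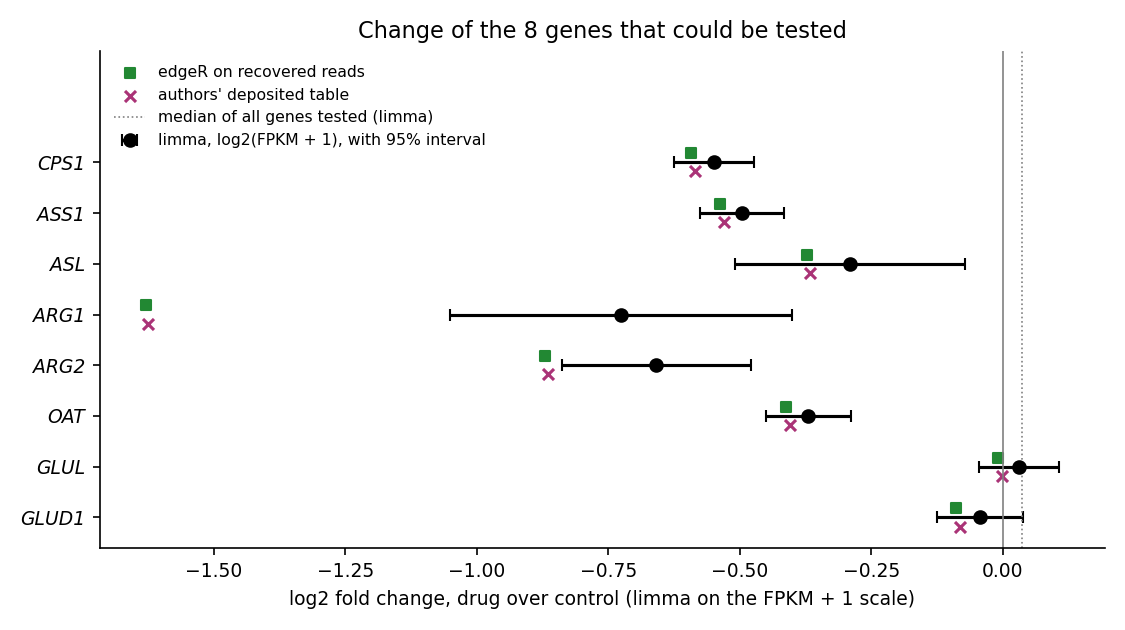
Log2 fold change of drug over control for the 8 genes tested, from 3 sources. Black points with bars are limma on log2(FPKM + 1) with 95% intervals, squares are edgeR on recovered reads, crosses are the authors' deposited values, the solid line marks 0 and the dotted line the median of all genes tested (0.036). The intervals of CPS1, ASS1, ASL, ARG1, ARG2 and OAT lie below 0, those of GLUL and GLUD1 include 0, and the limma value of ARG1 (-0.73) is smaller in size than its edgeR value (-1.63) because of the added 1 FPKM.

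ARG2, the mitochondrial arginase found mainly outside the liver, was above ARG1 in every library. It was at 4.93 and 5.62 FPKM without the drug and at 3.04 and 2.90 FPKM with it. With no overlap between groups, the means were 5.28 ± 0.493 and 2.97 ± 0.103 FPKM (SD, n = 2 each), a log2 fold change of -0.66 ± 0.07 (SE, limma adjusted p = 0.00863). The call ended without the filter (adjusted p = 0.0528). The recovered reads were 321 and 496 without the drug and 280 and 256 with it. ARG2 (ENSG00000081181, chromosome 14, 67619798 to 67651720) overlaps exons of VTI1B on the opposite strand. VTI1B was at 7.45 and 8.18 FPKM without the drug and 8.76 and 8.72 FPKM with it, the opposite direction to ARG2. The sources used here do not give whether counting used strand, and reads in the overlap could belong to either gene. The ratio of ARG2 to ARG1 was 3.15 and 4.34 without the drug and 5.23 and 8.02 with it, and the exact permutation p was 0.333, the smallest that 4 libraries allow.

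OAT moves the amino group of ornithine to 2-oxoglutarate and links the urea cycle to proline and glutamate. It was at 146 and 150 FPKM without the drug and at 117 and 112 FPKM with it. The groups did not overlap, with means of 148 ± 2.31 and 114 ± 3.52 FPKM (SD, n = 2 each) and a log2 fold change of -0.37 ± 0.03 (SE, limma adjusted p = 0.00534). Its recovered reads ran from 14140 to 19566. OAT (ENSG00000065154) lies on chromosome 10 at 124397303 to 124418976.

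GLUL joins ammonia to glutamate to make glutamine. Its levels were 15.7 and 15.7 FPKM without the drug and 16.1 and 16.1 FPKM with it, so the drug libraries were higher by a small margin. The log2 fold change was 0.03 with a 95% interval of -0.05 to 0.11 (limma adjusted p = 0.520), and it turned to -0.0083 with edgeR and -0.00075 with DESeq2 on recovered reads. The interval does not reach the falls of CPS1, ASS1, ARG2 or OAT. GLUL (ENSG00000135821) lies on chromosome 1 at 182381704 to 182392206. The ratio of OAT to GLUL was 9.30 and 9.55 without the drug and 7.27 and 6.96 with it. That ratio did not overlap between groups, with the exact permutation p again at its smallest value of 0.333.

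GLUD1 interconverts glutamate and 2-oxoglutarate and can release or fix ammonia. It was at 12.9 and 13.1 FPKM without the drug and at 12.6 and 12.6 FPKM with it. The drug libraries were lower by a small margin that did not pass (log2 fold change -0.04, 95% interval -0.13 to 0.04, limma adjusted p = 0.398, edgeR adjusted p = 0.136). GLUD1 (ENSG00000148672, chromosome 10, 87050486 to 87094866) overlaps exons of SHLD2 on the opposite strand, which was at 22.9 and 22.3 FPKM without the drug and 23.6 and 23.5 FPKM with it. Its level beside other genes depends on the gene length used. The deposited FPKM of GLUD1 imply a length of 14283 bases, against 3519 exon bases in GENCODE 29, and on the latter length its control mean would be 52.8 FPKM instead of 13.0 FPKM. For ASL (implied 6031 bases, GENCODE 3195) the control mean would be 13.3 FPKM, and for GLUL (12638 against 9032) it would be 21.97 FPKM, so that GLUD1 would stand above GLUL. For the other 6 genes the implied length was 0.945 to 1.13 times that of GENCODE. A length cancels in a plain ratio of group means, but not in a fold change on the log2(FPKM + 1) scale or in the filter.

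**Figure D3:**
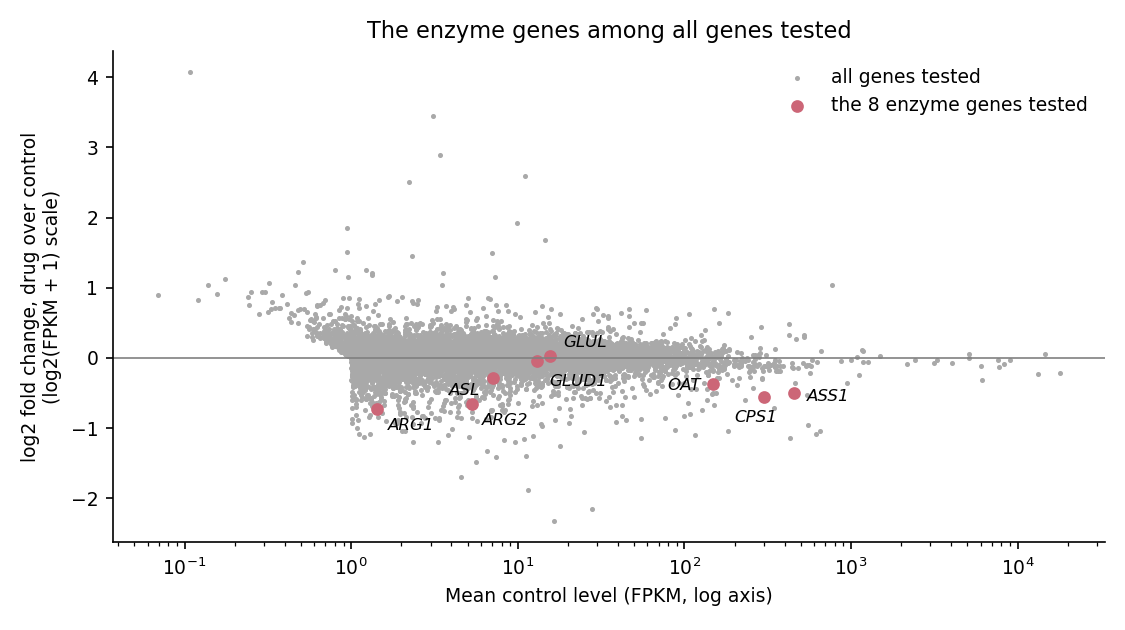
Log2 fold change on the log2(FPKM + 1) scale against the mean control level in FPKM (log axis) for the 11227 genes tested, in grey, with the 8 enzyme genes in colour. ASS1, CPS1 and OAT sit at the high end of the level axis and below the zero line, while GLUL and GLUD1 sit near it.

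Set among all tested genes, the control levels of ASS1, CPS1 and OAT were above those of 99.6%, 99.4% and 98.4% of genes. Their fold changes were lower than most: 2.04% of genes had a lower log2 fold change than ASS1, 1.67% than CPS1, 3.77% than OAT, 1.06% than ARG2 and 0.819% than ARG1, against 48.4% for GLUL. The median log2 fold change was -0.43 over the 8 enzyme genes tested and 0.036 over all genes tested. Summed over the 5 urea cycle genes, the level was 760 and 771 FPKM without the drug and 536 and 533 FPKM with it. Nearly all of that sum was CPS1 and ASS1, with control means of 301 and 456 FPKM. The sum therefore says little about ASL, ARG1 and OTC. With each library left out in turn, 4 genes kept their limma call, CPS1, ASS1, ARG2 and OAT. Each such fit leaves a group with 1 library, which is assumed to vary like the other group.

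Copies of the enzyme genes were checked for shared reads. Of the 8 pseudogenes of ASS1 in the table, the highest was ASS1P11 with 26 and 37 reads without the drug and 22 and 30 reads with it, against 38318 and 54332 and then 39210 and 37768 reads for ASS1. GLUD2, an intronless copy of GLUD1 that matches it at 95.9% of 2512 bases, had 44 and 74 reads without the drug and 73 and 71 reads with it, against 5264 and 7231 and then 7223 and 6988 reads for GLUD1. CPS1-IT1, a transcript from within an intron of CPS1 on the same strand, was at 1.49 and 1.71 FPKM without the drug and 0.947 and 1.09 FPKM with it. Both of its drug libraries were below both controls, as for CPS1, but the difference did not pass (limma adjusted p = 0.0664). The handling of reads that match several places was not stated.

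The promoters of OAT, GLUL and ARG1 are shown because OAT passed as lower and GLUL, a gene of the same liver zone, did not pass, and because ARG1 had the largest fall and another kind of promoter. Each is the 250 bases before the gene's start in RefSeq (GRCh38.p14), 5′ to 3′ on the gene's strand, with capitals for matches to the motifs searched on either strand. The motifs were the TATA box (TATAAA), the CCAAT box (CCAAT), the GC box (GGGCGG), a C/EBP site (TTNCNNAA), the hypoxia response core (ACGTG) and a TCF/LEF site (CTTTGAT), and none of these contains another. A pair of neighbouring GC boxes in OAT share a base.
OAT, minus strand, chr10:124418924-124419173: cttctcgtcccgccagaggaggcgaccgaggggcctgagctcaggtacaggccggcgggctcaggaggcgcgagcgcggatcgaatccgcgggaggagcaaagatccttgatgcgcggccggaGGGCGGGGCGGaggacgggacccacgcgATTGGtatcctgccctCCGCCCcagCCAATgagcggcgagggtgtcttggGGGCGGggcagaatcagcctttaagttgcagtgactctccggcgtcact
GLUL, minus strand, chr1:182391791-182392040: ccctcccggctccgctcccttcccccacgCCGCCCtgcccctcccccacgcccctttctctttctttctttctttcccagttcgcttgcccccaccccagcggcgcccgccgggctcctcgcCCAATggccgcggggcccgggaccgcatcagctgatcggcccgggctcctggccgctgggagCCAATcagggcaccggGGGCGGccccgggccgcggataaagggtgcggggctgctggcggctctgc
ARG1, plus strand, chr6:131572976-131573225: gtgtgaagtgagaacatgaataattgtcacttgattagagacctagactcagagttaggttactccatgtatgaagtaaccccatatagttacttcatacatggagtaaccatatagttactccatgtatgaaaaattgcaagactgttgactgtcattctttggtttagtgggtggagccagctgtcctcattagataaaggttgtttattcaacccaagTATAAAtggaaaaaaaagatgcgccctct
The OAT and GLUL windows were GC-rich (68.4% and 74.8% of bases, with 27 and 25 CpG pairs). Each held 2 CCAAT boxes, and they held 4 and 2 GC boxes. At least 1 CCAAT box lay in 32.0% of the 35116 RefSeq promoters and at least 1 GC box in 42.6%, at any position and on either strand. In OAT the nearest CCAAT box began 74 bases and the nearest GC box 49 bases before the start, and in GLUL 66 and 50 bases. The ARG1 window had 37.6% GC and 1 CpG pair, lower in GC than all but 8.94% of promoters, and a TATA box 29 bases before the start. TATAAA at any position and on either strand lay in 10.7% of promoters. No C/EBP, hypoxia or TCF/LEF match lay in these 3 windows, which says only that these letters are not in them. Elsewhere, the CPS1 and OTC windows each held 2 C/EBP matches (at least 1 in 33.2% of promoters). OTC also held 1 TCF/LEF match (2.26%), and ARG2 held 1 hypoxia core (18.5%). The window of OTC, which was not tested for change, had 40.4% GC and a TATAAA 192 bases before its start. Among the other genes, the ASS1, ASL, ARG2 and GLUD1 windows had 68.4%, 74.0%, 72.4% and 80.4% GC, so GC-rich windows were found beside genes that fell and genes that did not. The CPS1 window lies 36817 bases from the start of the principal transcript in GENCODE 29 and is not shown.

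Markers of cell types were read to check the label. Of 11 hepatocyte markers found, 8 had at least 1 FPKM, led by FGB, KRT18 and KRT8, while TTR (0 to 0.0238 FPKM) and APOB (0.01005 to 0.0384 FPKM) were almost absent and AFP was at 0.372 to 0.449 FPKM. Of the 8 tested, 3 were higher (KRT18, KRT8 and HNF4A) and 4 lower (FGB, ALB, TF and APOA1), against 7.78% and 6.02% of all genes tested. HNF4A and APOA1 did not keep their calls with any 1 library left out. Nor did TF without control 1, control 2 or drug 2, or KRT8 without control 1. FGB was at 556 and 549 FPKM and then 295 and 274 FPKM, ALB at 3.15 and 3.23 FPKM and then 1.31 and 1.32 FPKM, and KRT18 at 158 and 164 FPKM and then 221 and 233 FPKM. The 6 cholangiocyte markers summed to 3.31 to 3.77 FPKM, with the groups overlapping. All 6 fibroblast markers lay under 1 FPKM (summed 0.620 to 1.07 FPKM). The endothelial and immune lists held 1 gene each at 1 FPKM or above, PECAM1 (4.66 and 4.11 FPKM in control, 2.09 and 2.23 FPKM in drug libraries) and LYZ (181 and 183 FPKM, then 283 and 287 FPKM), with VWF at 0 in 3 libraries, CDH5 at most 0.0431 FPKM and CD14 at most 0.170 FPKM. The part of these genes in the results was not tested. Of the endothelial and immune markers, 5 were not analysed here. In bulk RNA, fewer cells of a type and less RNA per cell cannot be told apart. Recovered reads totalled 28526098 and 38611635 without the drug and 40279560 and 38685856 with it.

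Related genes were then read from 10 lists of nitrogen metabolism, of which 98 of 103 genes had values and 69 were tested. Of the 69, 11 were higher (15.9%, against 7.78% of all genes tested) and 13 lower (18.8%, against 6.02%), and 45 did not pass. These counts became 7 and 6 without the filter, 11 and 23 with DESeq2 on recovered reads, and 5 to 8 and 6 to 7 with 1 library left out. All genes moved too, to 4.89% higher and 6.45% lower with TMM scaling. The lists were chosen with earlier results of these data known, and some genes are in more than 1 list. Among 6 tested genes of urea cycle support and mitochondrial carriers 1 was lower, SLC25A15, which exchanges ornithine and citrulline across the inner mitochondrial membrane. It was at 42.9 and 43.5 FPKM without the drug and at 34.0 and 34.6 FPKM with it (-0.32 ± 0.03 on the log2 scale, SE, limma adjusted p = 0.00507). SLC25A13, the aspartate and glutamate carrier citrin, was at 43.0 ± 1.03 and 44.6 ± 0.0324 FPKM (SD, n = 2 each) and did not pass (limma adjusted p = 0.270). NAGS, which makes the activator of CPS1, was under the filter at 0.268 and 0.348 FPKM without the drug and 0.153 and 0.319 FPKM with it.

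Genes that draw on ornithine and arginine went in both directions. ODC1, which turns ornithine into putrescine at the start of polyamine synthesis, rose from 427 and 417 FPKM without the drug to 534 and 527 FPKM with it (0.33 ± 0.03 on the log2 scale, SE, limma adjusted p = 0.00463). It was the single gene to pass limma among 6 tested ornithine and proline genes, against 13.8% of all genes tested in either direction. PYCR1, which makes proline, passed as lower with edgeR (36.8 and 36.2 FPKM, then 32.8 and 34.4 FPKM, adjusted p = 0.0192, limma 0.0856). AGMAT, annotated as agmatinase, rose from 22.8 and 22.6 FPKM to 28.9 and 29.02 FPKM (log2 fold change 0.34, limma adjusted p = 0.00475). GATM, the first enzyme of creatine synthesis from arginine, fell from 4.92 and 4.92 FPKM to 3.81 and 3.60 FPKM (log2 fold change -0.33, limma adjusted p = 0.0187), but did not pass with any 1 library left out (adjusted p = 0.0566 to 0.0963). SLC7A2, a cationic amino acid transporter of the liver, fell from 18.2 and 16.8 FPKM to 12.7 and 11.8 FPKM (log2 fold change -0.48, limma adjusted p = 0.0106), a call lost without control 1 (adjusted p = 0.0536). Another cationic transporter gene, SLC7A1, was at 11.1 ± 0.117 and 10.2 ± 0.0505 FPKM (SD, n = 2 each) and did not pass in limma (adjusted p = 0.0873) but passed as lower with edgeR (adjusted p = 0.00917).

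Enzymes that use or make glutamate and glutamine were read beside all genes tested, of which 13.8% passed limma in either direction. With 7 and 8 genes tested, counts this small cannot be told apart from that share. Of 7 tested genes of glutamate and aspartate metabolism 1 was lower, GPT2, the mitochondrial alanine aminotransferase, at 14.1 and 13.8 FPKM without the drug and 11.4 and 11.7 FPKM with it (log2 fold change -0.25, limma adjusted p = 0.0152). GPT2 did not pass with any 1 library left out (adjusted p = 0.0632 to 0.0843). The liver-type glutaminase gene GLS2 was almost absent, at 0.0180 to 0.0339 FPKM, and ASNS, the asparagine synthetase gene, was at 0.436 to 0.618 FPKM. Of 8 tested genes of glutamine amidotransferases, among them CAD and PPAT of pyrimidine and purine synthesis, 0 passed limma in either direction, with a median log2 fold change of -0.01. By edgeR 1 of the 8 had an adjusted p under 0.05 (GFPT1, 0.0383), and by limma 1 of the 8 had an unadjusted p under 0.05. The glutamine transporter gene SLC1A5 fell from 45.6 and 46.1 FPKM to 42.0 and 42.3 FPKM (log2 fold change -0.12, limma adjusted p = 0.0437) and did not pass with any 1 library left out (adjusted p = 0.127 to 0.154). SLC38A2 and SLC38A1, which carry glutamine with sodium, did not pass.

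**Figure D4:**
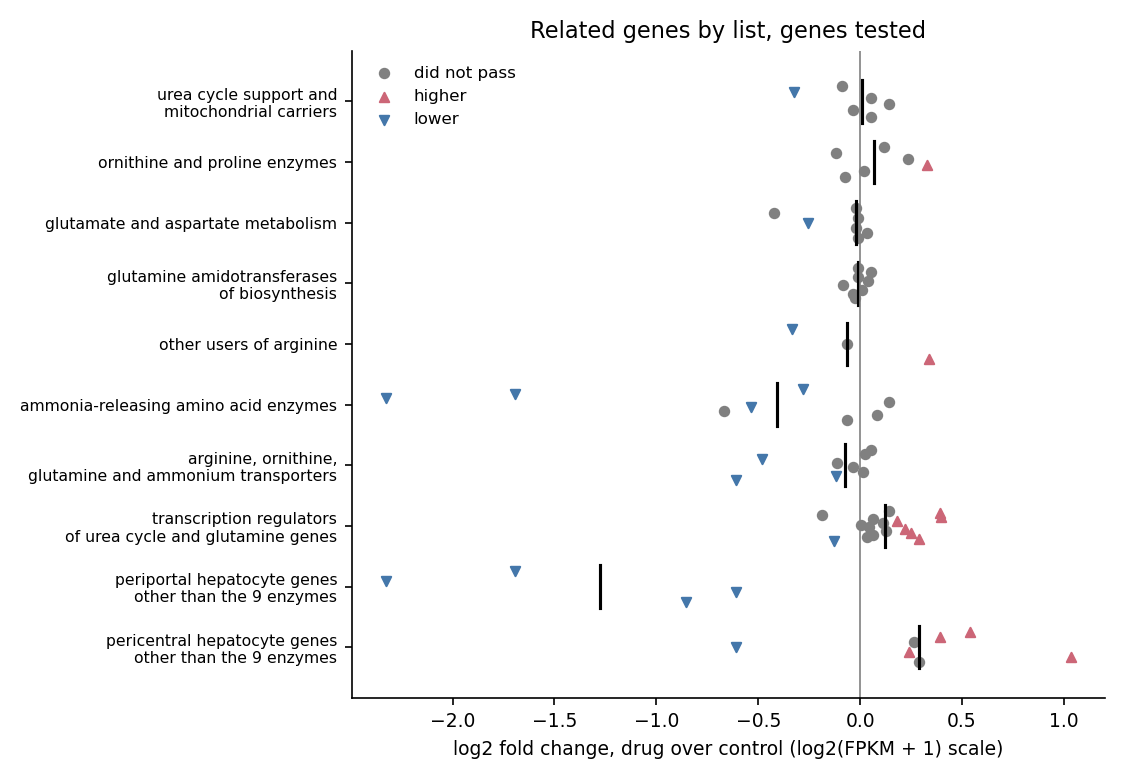
Log2 fold change of drug over control on the log2(FPKM + 1) scale for each tested gene of 10 related lists. Triangles pointing up and down are genes called higher and lower by limma, grey circles did not pass, and black bars are list medians. The amidotransferase genes lie close to 0, the ammonia-releasing list has a median of -0.41 with HAL and SDS at the far left, and the periportal and pericentral lists have medians of -1.28 and 0.29.

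Genes of the list for ammonia release from amino acids were lower in part. Of 8 tested, 4 fell and none rose, against 6.02% and 7.78% of all genes tested, with a median log2 fold change of -0.41. The 8 included CBS, which condenses homocysteine with serine, and AMPD2, which acts on AMP and not on an amino acid. Neither passed limma (adjusted p = 0.192 and 0.376). HAL, which removes ammonia from histidine, fell from 16.9 and 16.1 FPKM to 2.37 and 2.62 FPKM (log2 fold change -2.33, limma adjusted p = 0.000523). SDS, which removes it from serine, fell from 4.89 and 4.27 FPKM to 0.677 and 0.765 FPKM (log2 fold change -1.69, limma adjusted p = 0.00147). CTH, which releases ammonia from cystathionine, fell from 15.7 and 16.1 FPKM to 10.3 and 11.0 FPKM (log2 fold change -0.54, limma adjusted p = 0.00445), and the SDS relative SDSL fell from 7.44 and 6.87 FPKM to 5.77 and 5.66 FPKM (log2 fold change -0.28, limma adjusted p = 0.0296). SDS passed the filter through its control level alone, and SDSL did not pass with any 1 library left out (adjusted p = 0.0675 to 0.120). GLDC of glycine cleavage was at 11.2 ± 0.891 and 12.4 ± 0.545 FPKM (SD, n = 2 each) and did not pass (limma adjusted p = 0.186).

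Genes known from the 2 zones of the liver lobule were read beside the enzymes. Of 9 periportal genes other than the urea cycle genes, 4 were tested and all 4 were lower, against 6.02% of all genes tested. They were HAL, SDS, ALB and the E-cadherin gene CDH1. CDH1 was at 12.4 and 12.4 FPKM without the drug and 7.72 and 7.87 FPKM with it. HAL and SDS were already counted in the list for ammonia release, and SDS passed the filter through its control level alone, which favours a fall. The other 5 periportal genes lay under 1 FPKM in both groups, and 4 of them (GLS2, PCK1, HSD17B13 and PIGR) had at most 17 reads in a library, too few to order the groups. The remaining gene, SLC38A3, overlapped between groups, at 0.327 and 0.176 FPKM without the drug and 0.250 and 0.234 FPKM with it. Of 7 pericentral genes tested, LGR5, ZNRF3, TBX3 and RNF43, which respond to Wnt signals, were higher, and SLC1A2, a glutamate transporter, was lower, against 7.78% and 6.02% of all genes tested. Of the 13 pericentral genes in the table, 6 had both drug libraries above both controls and 2 below. Over all genes in the table these shares were 24.2% and 20.6%. The 6 were LGR5, ZNRF3, TBX3, RNF43, AXIN2 and SP5, all tested, and 40.3% of all genes tested had that pattern. AXIN2 passed the filter through its drug level alone (means 0.689 and 1.06 FPKM), which favours that pattern, and limma did not call it (adjusted p = 0.166). The 2 below were SLC1A2 and the Wnt target NOTUM (0.120 and 0.169 FPKM, then 0.0597 and 0.0710 FPKM, at most 19 reads in a library). LGR5 was at 3.32 and 3.65 FPKM without the drug and at 8.14 and 8.21 FPKM with it, and ZNRF3 at 5.45 and 5.71 FPKM and then 8.47 and 8.63 FPKM. SLC1A2 (2.06 and 2.15 FPKM, then 1.08 and 0.996 FPKM) and RNF43 did not pass with any 1 library left out (adjusted p = 0.0528 to 0.0693 and 0.115 to 0.171), nor did TBX3 without control 1 (adjusted p = 0.0542). Of the 2 pericentral genes among the 9 enzymes, GLUL did not pass and OAT fell.

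Transcription factor genes linked to urea cycle and glutamine genes were read next. All 16 were tested, 6 were higher and 1 lower, against 7.78% and 6.02% of all genes tested, with a median log2 fold change of 0.12 against 0.036. The glucocorticoid receptor gene NR3C1 rose from 17.7 and 18.6 FPKM to 24.3 and 24.1 FPKM (0.40 ± 0.04 on the log2 scale, SE, limma adjusted p = 0.00588). CEBPA, which encodes a factor that activates urea cycle genes, rose from 9.58 and 10.5 FPKM to 12.5 and 12.5 FPKM (log2 fold change 0.29, limma adjusted p = 0.0284), and the beta-catenin gene CTNNB1 rose from 27.7 and 28.6 FPKM to 33.4 and 33.9 FPKM (log2 fold change 0.25, limma adjusted p = 0.0122). TBX3 (11.5 and 11.8 FPKM, then 15.2 and 16.05 FPKM), HNF4A and FOXA2 were the other risers, and ATF4 fell from 142 and 145 FPKM to 132 and 131 FPKM (limma adjusted p = 0.0347). CEBPA and CTNNB1 did not keep their calls when control 1, drug 1 or drug 2 was dropped (adjusted p = 0.0578 to 0.110), and HNF4A, FOXA2 and ATF4 lost theirs with any 1 library dropped. Among coactivators, PPARGC1A was at 2.64 ± 0.147 and 2.20 ± 0.190 FPKM (SD, n = 2 each) and did not pass in limma (adjusted p = 0.158) but passed as lower with edgeR (adjusted p = 0.0263).

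ARG1 had the largest limma fold change of the 5 fallers, and the protein-coding genes closest to it in profile were named by a rule. The measure was the Euclidean distance between log2(FPKM + 1) values, less the control mean, over the 4 libraries. The 3 closest were METTL7A (distance 0.101), C15orf48 (0.123) and RHOV (0.136). METTL7A was at 8.23 and 7.74 FPKM without the drug and at 4.82 and 4.34 FPKM with it. With 4 libraries in 2 groups, such closeness says little more than that the fall was of like size.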

How the data were processed

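The table holds 4 per-library columns, which are FPKM values that the authors deposited, identified from the values. The group columns are deposited mean normalized reads, a signal: reads scaled by 1 factor for each library. Log2 fold changes, p-values and adjusted p-values in the authors' deposited table are their own comparison, per the file headers. The submitters' processing notes name bcl2fastq, which writes reads from raw sequencer output, and hg38. An aligner, a counter and an annotation are not named in the sources used here. The FPKM and group columns combined gave back whole reads (100% of values within 0.1 read). The limma 3.58.1 test (trend, two-sided) used genes averaging 1 FPKM or more in either group, on log2(FPKM + 1), with Benjamini-Hochberg adjustment over all of them and a threshold of 0.05. Alternatives were pseudocounts of 0.1 and 0.01, no filter, TMM-scaled FPKM, edgeR 4.0.16 and DESeq2 1.42.0 on recovered reads, a block for the replicate number, and fits without each library. EdgeR without a filter was added after the data were seen. Scripts were tested on simulated data. Members and lists were chosen with earlier results of these data known. All 9 genes are named. From each list up to 4 genes are named that passed, reached 2 FPKM and did not overlap between groups, in order of size, besides GLS2, NAGS, SLC25A15, ASNS and ODC1 as references; a further reference gene is not reported here. The 3 genes nearest to ARG1 in profile are named too, and copies of the 9 genes are named only as a check. Other list genes, copies and markers were named after their values were seen. Coordinates are from GENCODE 29 and promoters from RefSeq (9 of 9 genes matched by symbol). Copies were searched among GENCODE transcripts with BLAST at 95% identity over at least 100 bases. Counting intervals are not given for FPKM, and no column of per-library values was left unused.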

Additional observations from a re-analysis of the deposited data

How the results depend on the processing

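The 5 falls were also found with pseudocounts of 0.1 and 0.01, TMM-scaled FPKM and the replicate block. Without the filter, 3 of the 9 genes were lower (CPS1, ASS1 and OAT), since ARG1 (adjusted p = 0.104) and ARG2 (0.0528) no longer passed. With any 1 library left out, CPS1, ASS1, ARG2 and OAT stayed lower and ARG1 no longer passed, while ASL passed without drug library 2. GLUL reversed with edgeR (log2 fold change -0.0083) and DESeq2 (-0.00075). Over all genes, limma called 873 higher and 676 lower (56.4% higher), and 549 and 724 with TMM-scaled FPKM (43.1% higher). Without the filter it called 170 and 214. On recovered reads, edgeR called 940 and 1233, edgeR without a filter 1419 and 1549, and DESeq2 1042 and 1222. Leaving out 1 library gave 115 to 221 higher and 188 to 274 lower. For the related lists, 11 higher and 13 lower became 7 and 6 without the filter, 12 and 23 with edgeR without a filter, 11 and 23 with DESeq2, and 5 to 8 and 6 to 7 with 1 library left out. The causes were not tested. The labels do not say whether libraries of the same number were prepared as pairs. Deviations of control 1 and drug 1 from their group means had a correlation of 0.0278 over 11227 genes, which cannot settle that. With the replicate block 474 genes were higher and 451 lower, 5 of the 9 enzyme genes among the latter. That block ended the call of SLC1A5 (adjusted p = 0.0742). Of 348 values for 29 named genes under alternatives, 300 kept direction and call, 42 lost the call, 4 gained it and 2 reversed. Depth limits OTC and ARG1, which had at most 25 and 111 reads in a library.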

Other observations

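Of the 29 related genes under the filter, 13 had both drug libraries below both controls and 2 above. The shares were 20.6% and 24.2% over all genes in the table, and 23.3% and 40.3% over those tested. Shares over the genes under the filter alone were not computed, so the shares given are not a like background. Both drug libraries lay below both controls for 5474 of the 26603 genes in the table, 2613 of them among the 11227 tested. They lay above both controls for 6450 genes, 4521 of them tested. The 2 above were AMPD3 (0.0921 and 0.102 FPKM, then 0.174 and 0.196 FPKM) and PRODH, which had at most 8 reads in a library. Of the 13, GLS2, HSD17B13, AMT, PIGR, SLC38A5, PCK1 and NOTUM had at most 19 reads in a library, too few to order the groups. Some of the others are given here. The cytosolic alanine aminotransferase gene GPT was at 0.852 and 0.658 FPKM without the drug and 0.306 and 0.403 FPKM with it. PYCR3, which makes proline, was at 0.551 and 0.951 FPKM and then 0.277 and 0.111 FPKM, the asparaginase gene ASPG at 0.745 and 0.707 FPKM and then 0.296 and 0.262 FPKM, and the endothelial nitric oxide synthase gene NOS3 at 0.148 and 0.1004 FPKM and then 0.0502 and 0.0567 FPKM. SLC7A7, part of the system that exports cationic amino acids, was at 0.712 and 0.458 FPKM without the drug and 0.319 and 0.332 FPKM with it. These genes were not tested in limma, and they were named after their values were seen. SLC25A18, a mitochondrial glutamate carrier gene, was tested, and passed the filter through its control level alone. It was at 0.926 and 1.32 FPKM without the drug and 0.577 and 0.579 FPKM with it. It did not pass in limma (adjusted p = 0.0927) but passed as lower with edgeR (adjusted p = 0.0106), a direction that such a filter pass favours. CBS, which condenses homocysteine with serine, differed widely between libraries of 1 group, at 16.2 and 9.86 FPKM without the drug and 5.84 and 9.83 FPKM with it (limma adjusted p = 0.192).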
